A study of Mus musculus with 24 samples.

Results

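The 32 genes described here encode chains of the collagens found outside cartilage. They were chosen by name: a probe set belonged if its single gene symbol was that of a collagen chain, and the cartilage collagens Col2a1, Col9a1, Col9a2, Col9a3, Col10a1, Col11a1 and Col11a2 were left out. Each of the 32 genes was measured by 1 probe set, out of 16661 probe sets and 14807 genes on the array. A further probe set carried Col19a1 together with a tubulin symbol and was left out. By the structure of the protein, 8 members are fibrillar collagens, 9 belong to the basement membrane or the layer just below it, and 15 are of other kinds.

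The study measured total RNA of digits with Affymetrix exon arrays in wild-type mice aged 3 to 4 months, of the strains C57BL/6 (B6) and MRL, the latter known for the closure of ear wounds. The design text names unamputated digits beside amputated ones. Day 0 digits are taken here as the former, and the others were collected 3, 7 or 14 days after amputation. The 24 arrays fall into 8 strain-and-day groups with 3 biological replicates apiece, per the labels. The labels name the second phalanx of the middle hindlimb digits as the tissue and, in a note, the anterior part of such a digit, and they do not say how many animals gave each RNA. Since the RNA came from whole tissue, fewer cells of a type and less RNA per cell cannot be told apart.

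Collagens are the main structural proteins of connective tissue, and each is built from chains wound around each other into a rope-like helix. Fibrillar collagens form the load-bearing fibrils of skin, tendon and bone, network-forming collagens form the sheet of the basement membrane, and smaller families coat fibrils, form beaded filaments or cross the cell membrane. In a healing wound, fibroblasts first lay down a loose matrix and later deposit fibrillar collagen, while the epidermis attaches to a rebuilt basement membrane.

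Levels are given as the log2 of the deposited intensity, and differences as log2 differences with the standard error (SE) of limma. A gene was called when the two-sided p of limma, adjusted by the Benjamini-Hochberg method over 15928 probe sets, was under 0.05. The levels of different genes are not set against each other, since each probe set has its own response. Precision is limited by having 3 arrays a group, and nothing in the labels ties the 3 arrays of a group to litters, days or hybridisation runs.

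Before the results, 2 groups need a caution. Il1b, an inflammatory cytokine, averaged 6.01 ± 0.38 at B6 day 0 (SD, n = 3) but 11.78 ± 0.10 by B6 day 3, against 10.21 ± 0.14 in the arrays labelled MRL day 0 and 5.98 ± 0.80 in those labelled MRL day 3. Mmp13 followed the same order, and Krt31, a hair and nail keratin, the opposite one. These arrays therefore run against their day labels, while H2-Ea, a class II gene that B6 mice do not express, separated the strains as labelled. They are called "labelled MRL day 0" and "labelled MRL day 3" throughout, and a fit without these 6 arrays, added after the data had been seen, is given where it ended the call of a gene described below. The summed levels of 5 keratinocyte and 5 fibroblast markers at B6 day 0 were 15.32 to 15.36 and 13.85 to 13.89. None of 3 skeletal muscle markers was called in the B6 comparisons of days 3, 7 and 14 with day 0. Of all probe sets, 45.4%, 42.9% and 37% were called there. The muscle markers had a summed level of 8.16 to 8.34 at B6 day 0, with a lowest value of 6.24. At levels this low a fall may not show, and background was not measured.

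In B6, more collagens were called lower than higher at day 3, and more were called higher than lower at days 7 and 14. At day 3, 4 of 32 collagens were higher than at day 0 and 17 were lower, where 45.4% of all probe sets tested were called, 17.4% higher and 28% lower. At day 7 the numbers turned to 17 higher and 5 lower, where 42.9% of all probe sets were called, 23.5% higher and 19.4% lower. At day 14 they were 15 higher and 3 lower, where 37% were called, 22.8% higher and 14.2% lower. The step from day 3 to day 7 had 23 collagens higher and 0 lower, where 21.2% of all probe sets were called, 17% higher and 4.17% lower. From day 7 to day 14 no collagen was called by limma (1.86% of probe sets were called, 1.46% higher and 0.402% lower), and 2 of the 32 had an unadjusted p under 0.05. The comparisons with day 0 share the same 3 day 0 arrays.

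The day 3 split depended on how arrays were scaled and on single arrays. Day 3 gave 4 higher and 17 lower with the deposited scaling, 5 and 12 with cyclic loess, and 7 and 10 when every array was centred on its median, which moved the median difference of all probe sets from -0.08 to 0.08. Without B6 day 3 replicate 2, 12 collagens were called, 1 higher and 11 lower, and fitting the 6 day 0 and day 3 arrays by themselves called 12, 3 higher and 9 lower. At day 14, 16 were higher and 7 lower with median centring and 13 and 6 with quantile normalization. The 32 genes had a median difference of -0.28 at day 3, 0.38 at day 7 and 0.25 at day 14, beside -0.08, -0.01 and -0.01 for all probe sets.

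**Figure D1:**
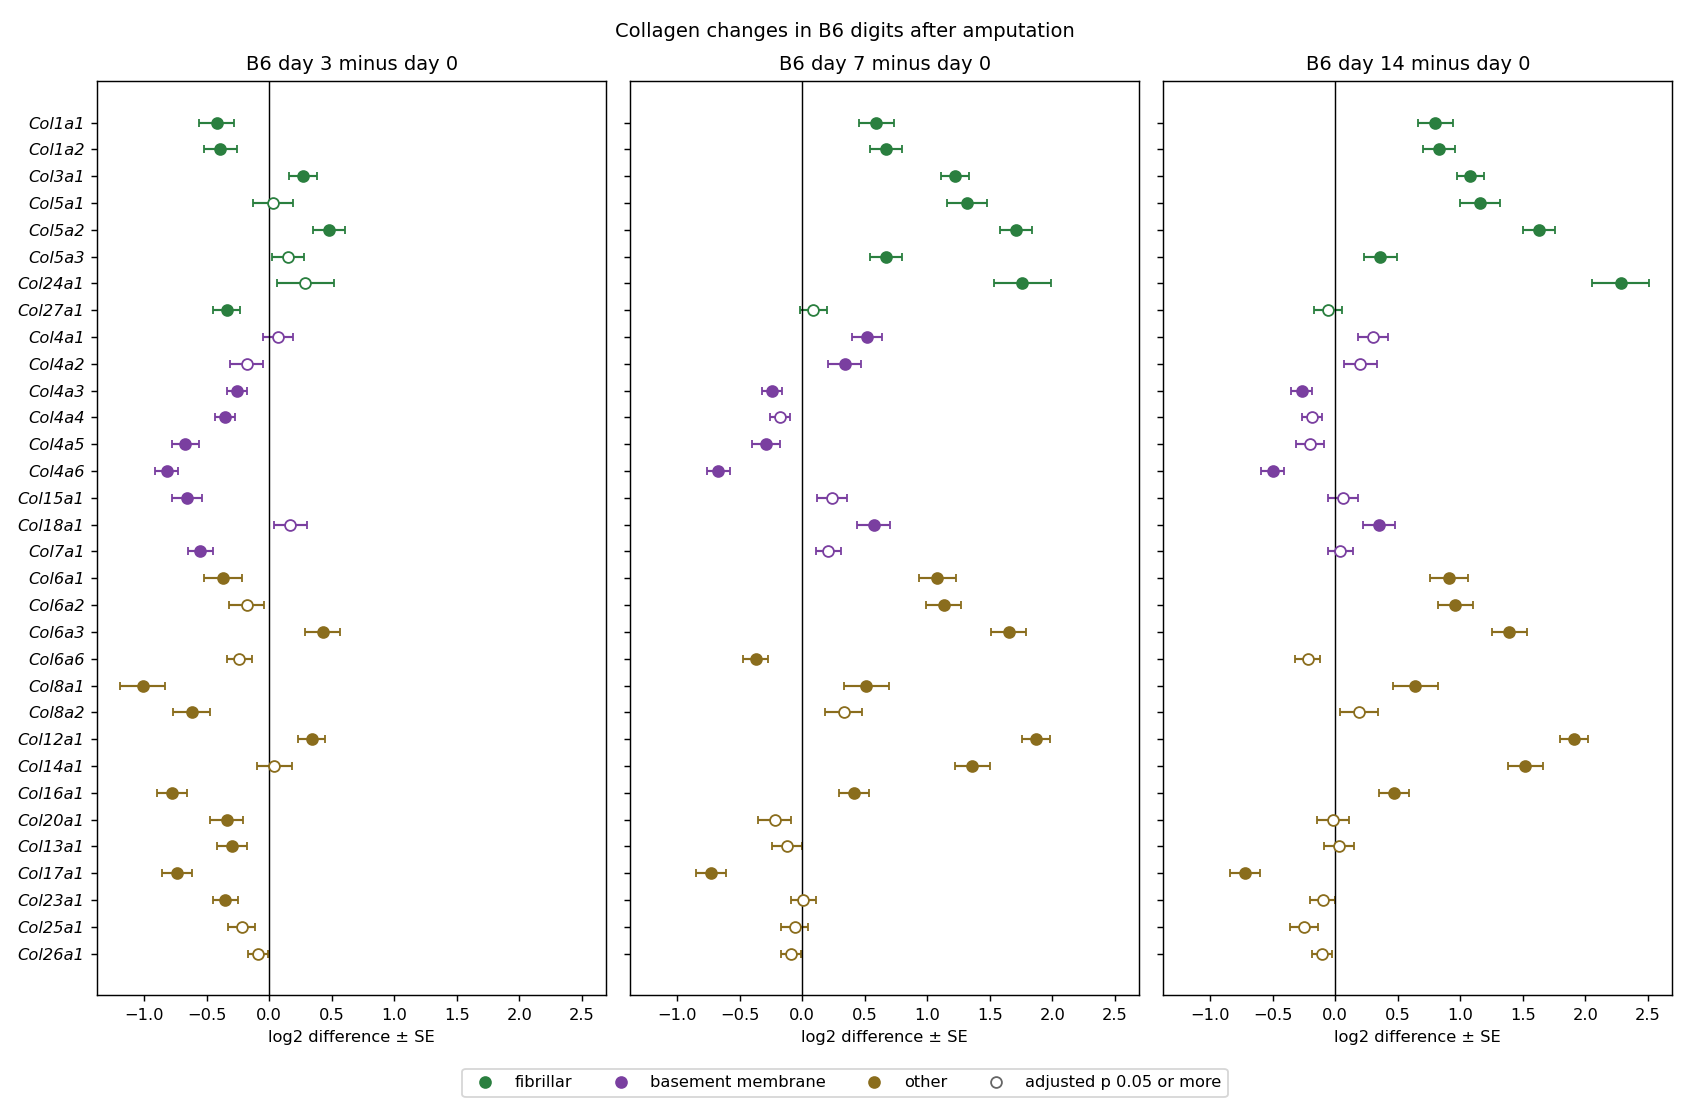
Log2 difference from day 0 (x axis, ± SE) of each of the 32 collagen genes (y axis) in B6 digits on days 3, 7 and 14, with 3 arrays a group. Filled points passed the adjusted p of 0.05 and open points did not. Most points lie left of 0 on day 3, while 7 of the 8 fibrillar genes are filled and right of 0 on days 7 and 14.

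Among the fibrillar collagens, 2 of 8 were higher and 3 lower at day 3 (17.4% and 28% of all probe sets). At day 7, 7 were higher and 0 lower (23.5% and 19.4%), and at day 14 again 7 and 0 (22.8% and 14.2%). All 8 were higher at day 7 than at day 3 (17% of all probe sets). Their median difference from day 0 was 0.09, 0.95 and 0.96 on the 3 days. The genes of type I collagen, the main protein of bone, tendon and skin, were lower at day 3 and higher at days 7 and 14. Col1a1, which encodes its main chain, had levels of 12.58, 12.60 and 12.68 at day 0 and of 12.49, 12.32 and 11.80 at day 3. All 3 day 3 arrays lay below day 0, and the array of replicate 3 lay well below the other day 3 arrays. The difference was -0.42 ± 0.14 (adjusted p = 0.0234). Without that array it was -0.21 with an adjusted p of 0.206, and without day 0 replicate 3 it was -0.39 with 0.0705. Median centring and quantile normalization gave -0.26 and -0.28, with adjusted p of 0.086 and 0.102.

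Col1a2, the partner chain in the same molecule, changed by nearly the same amount, -0.39 ± 0.13 at day 3 (adjusted p = 0.0167), with levels of 12.49, 12.48 and 12.57 at day 0 and of 12.37, 12.22 and 11.80 at day 3. Without B6 day 3 replicate 3 it stood at -0.22 with an adjusted p of 0.148, and without day 0 replicate 3 at -0.36 with 0.056. Median centring gave -0.23 (0.0851) and quantile normalization -0.24 (0.0789). At day 7 the levels of Col1a1 were 13.31, 13.05 and 13.27 and at day 14 they were 13.41, 13.46 and 13.40, all above every day 0 array. Col1a1 was 1.5-fold and 1.75-fold above day 0 on these days (0.59 ± 0.14 and 0.80 ± 0.14 in log2), and Col1a2 was 1.59-fold and 1.78-fold above it. The table's highest value is 13.64, and whether signals this high were compressed was not tested.

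The bases just upstream of Col1a2 and Col5a1 are shown because at day 3 the first gene was called lower and the second was not called, while both were higher at day 7. They are taken from the RefSeq promoter windows of the mouse build GRCm38.p6, end before the gene's first base, and lie at chr6:4505368-4505617 (plus strand) and chr2:27886175-27886380 (plus strand). Capitals mark the letters GGGCGG (the GC box) or CCAAT on either strand.
Col1a2: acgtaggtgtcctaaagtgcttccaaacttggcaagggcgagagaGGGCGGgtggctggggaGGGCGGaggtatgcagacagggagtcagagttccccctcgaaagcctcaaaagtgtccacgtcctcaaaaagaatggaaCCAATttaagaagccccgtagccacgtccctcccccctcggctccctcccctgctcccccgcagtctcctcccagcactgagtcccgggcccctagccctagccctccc
Col5a1: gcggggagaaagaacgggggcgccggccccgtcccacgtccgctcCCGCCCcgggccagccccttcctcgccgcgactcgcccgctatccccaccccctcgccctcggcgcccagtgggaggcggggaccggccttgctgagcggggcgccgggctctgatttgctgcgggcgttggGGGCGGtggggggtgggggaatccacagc

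The window of Col1a2 holds 2 GC boxes and 1 CCAAT box, and the stretch shown for Col5a1 holds 2 GC boxes and no CCAAT. A promoter window was found for 26 of the 32 members. Only the first 250 bases of each window were searched. Unlike the stretches shown, they were not cut at the gene's first base, and for Col5a1, Col4a5 and Col4a6 they run into the gene. In these 250 bases GGGCGG or its reverse CCGCCC stood in 16 of the 26 and in 32.7% of 32851 mouse promoter windows. CCAAT or ATTGG stood in 10 of the 26 and in 33.8% of all windows, and TATAAA or TTTATA in 3 of the 26 and in 12.4%. These counts describe letters in the windows and not binding.

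Col3a1 and Col5a2 were the fibrillar genes that were already higher at day 3. Col3a1 encodes type III collagen, abundant in early wound matrix, and Col5a2 a chain of type V collagen, which sits in the core of type I fibrils. The genes are neighbours on chromosome 1 with 0 protein-coding genes between them. Levels of Col5a2 were 9.31, 9.20 and 9.39 at day 0, 10.00, 9.78 and 9.57 at day 3, 11.14, 10.85 and 11.04 at day 7, and 10.85, 10.99 and 10.93 at day 14. No array of a later day overlapped day 0, and days 7 and 14 overlapped each other.

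The difference of Col5a2 from day 0 was 0.48 ± 0.13 at day 3 (adjusted p = 0.00384), 1.71 ± 0.13 at day 7 (3.27-fold, adjusted p = 1.69e-09) and 1.63 ± 0.13 at day 14. Col3a1 had levels of 11.77, 11.67 and 11.72 at day 0, 12.09, 12.00 and 11.88 at day 3 and 13.04, 12.78 and 13.02 at day 7. Its arrays did not overlap between these days. It was 0.27 ± 0.11 above day 0 at day 3 (adjusted p = 0.042) and 1.22 ± 0.11 at day 7 (2.33-fold, adjusted p = 1.54e-08). The day 3 call was lost when any single array of day 0, or day 3 replicate 1 or 2, was left out, with adjusted p between 0.0584 and 0.13, and with cyclic loess (0.14, adjusted p = 0.266).

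Col5a1, the other common chain of type V collagen, was not called at day 3, with levels of 9.27, 9.09 and 8.53 around the 8.91, 8.90 and 9.0 of day 0. By day 7 it had reached 10.39, 9.96 and 10.41, and it stood at 10.00, 10.18 and 10.13 at day 14. These levels lay above every day 0 and day 3 array, at 1.32 ± 0.16 over day 0 on day 7 (adjusted p = 1.68e-06) and 1.16 ± 0.16 on day 14. Col5a3, a less common chain of that type, rose by 0.67 ± 0.13 at day 7 and by 0.36 ± 0.13 at day 14 (adjusted p = 0.0417). The day 14 call was lost without day 0 replicate 1 or 2 or day 14 replicate 2 or 3, with adjusted p between 0.107 and 0.126, and at 0.0555 with a replicate block. Quantile normalization gave 0.23 (0.0976) and cyclic loess 0.28 (0.0525). The step of Col5a3 from day 3 to day 7 was 0.51 ± 0.13 (adjusted p = 0.00886). Its call was lost when days 3 and 7 were fitted by themselves (0.0884) and without day 3 replicate 3 (0.36, 0.0657).

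The gene with the largest difference from day 0 at day 14 among the 32 was Col24a1, a minor fibrillar collagen of developing bone. Its levels were 5.42, 5.61 and 5.55 at day 0, 6.08, 5.95 and 5.43 at day 3, 7.37, 7.05 and 7.43 at day 7 and 8.12, 8.11 and 7.20 at day 14. Day 3 overlapped day 0, and every array of days 7 and 14 lay above both. The difference from day 0 was 1.76 ± 0.23 at day 7 (3.38-fold, adjusted p = 4.49e-06) and 2.28 ± 0.23 at day 14 (4.87-fold, adjusted p = 3.04e-07). The day 14 arrays were spread over almost 1 log2 unit, and the step from day 7 to day 14, 0.53 ± 0.23, was not called (adjusted p = 0.391). Signal over background was not measured in these files, so folds from low levels such as these hold an unknown background.

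Col27a1, a fibrillar collagen mainly of cartilage in development that the list keeps, was the 1 fibrillar gene that did not rise over day 0. It was -0.34 ± 0.11 at day 3 (adjusted p = 0.013), and -0.27 or -0.28 with an adjusted p of 0.0742 or 0.0689 without day 3 replicate 2 or 3. Cyclic loess gave -0.15 (adjusted p = 0.193) and median centring -0.18 (0.101). At day 7 it was 0.43 ± 0.11 above day 3 (adjusted p = 0.00534), which brought it to levels of 8.10, 7.90 and 8.21 beside 7.93, 8.02 and 7.97 at day 0. That step was 0.25 with cyclic loess (adjusted p = 0.0616) and with quantile normalization (0.058), and it was lost when the fit held only its own 6 arrays (0.098).

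**Figure D2:**
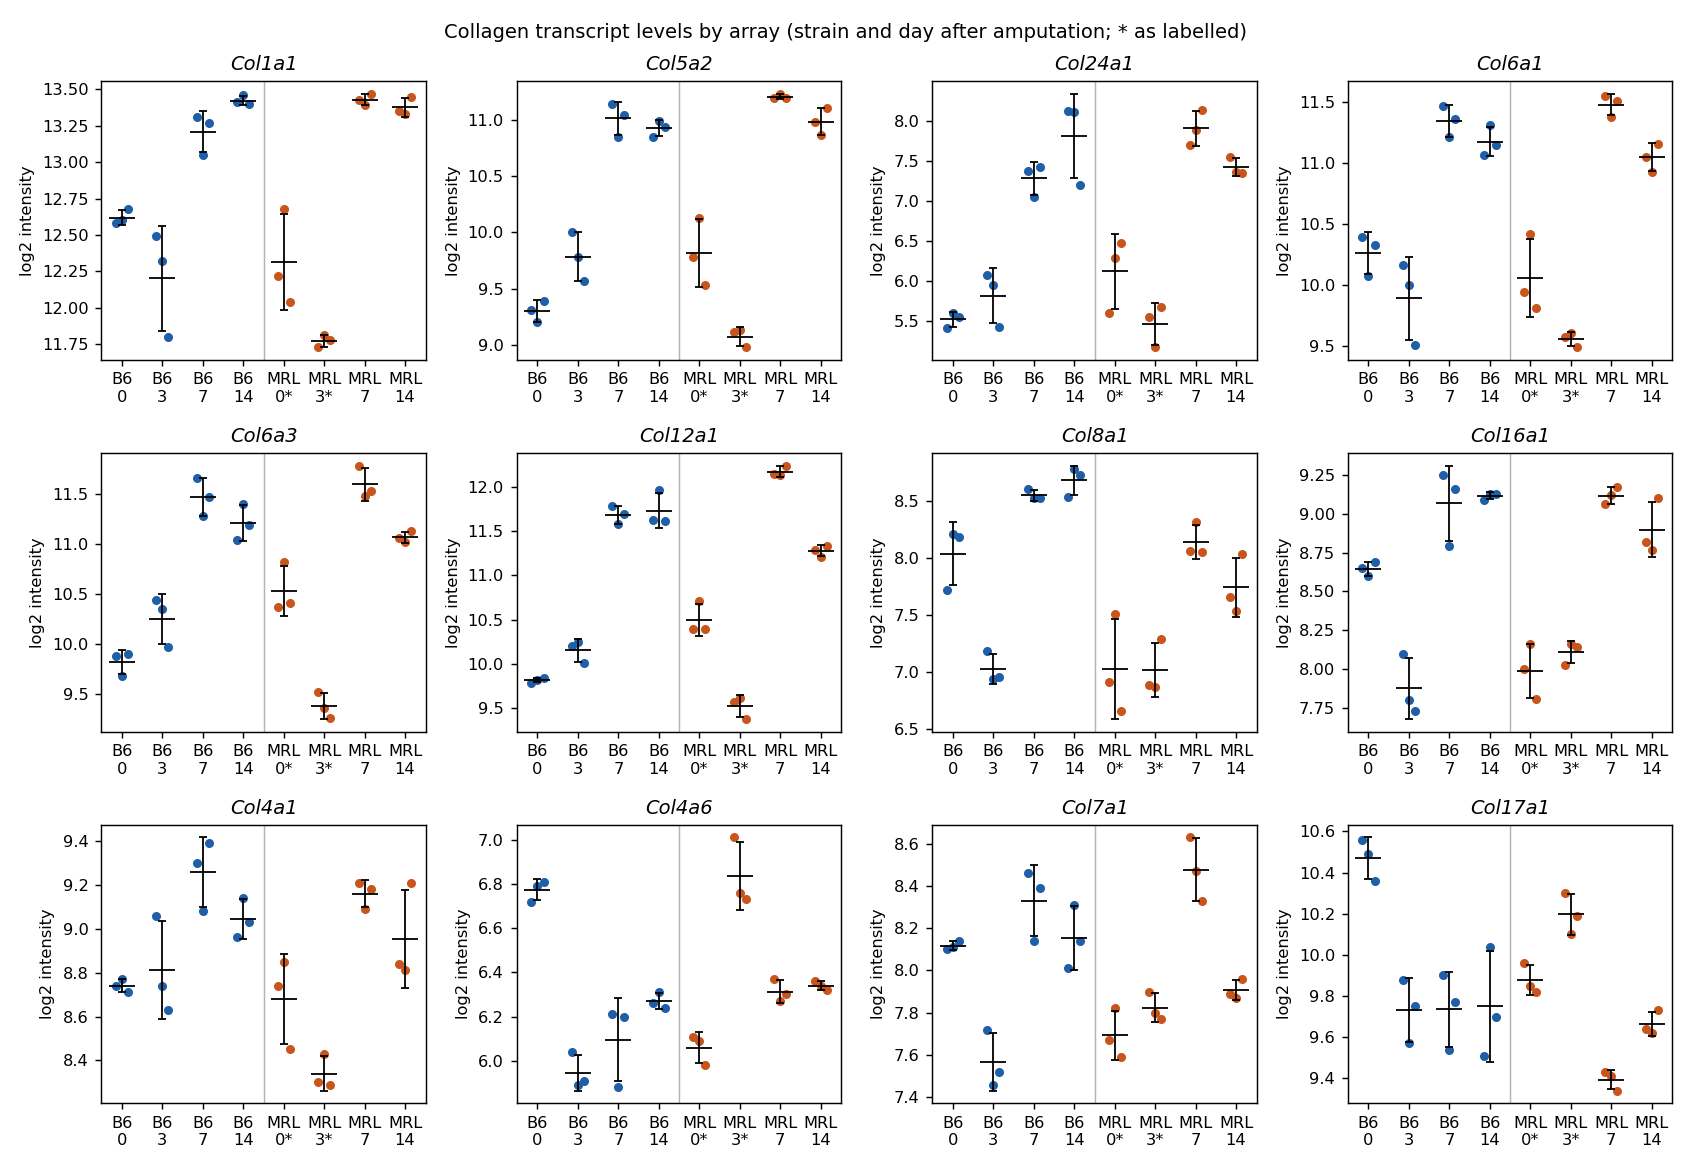
Log2 intensity (y axis) of chosen collagen genes in each of the 24 arrays, by strain and day (x axis, an asterisk marks the groups whose arrays run against their day labels). Points are arrays and bars are group means ± SD. Col1a1, Col5a2 and Col12a1 are higher on days 7 and 14 than on day 0 in B6, and Col17a1 is lower.

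Of the 9 basement membrane genes, 0 were higher and 6 lower at day 3 (17.4% and 28% of all probe sets). At day 7, 3 were higher and 3 lower (23.5% and 19.4% of all probe sets). At day 14, 1 was higher and 2 lower (22.8% and 14.2%). From day 3 to day 7, 6 were higher (17% of all probe sets). Col4a1, Col4a2, Col4a5 and Col18a1 lost the call of that step when days 3 and 7 were fitted by themselves. Their adjusted p were then 0.0844, 0.0767, 0.0848 and 0.154. Each also lost it without day 7 replicate 3, with adjusted p between 0.0566 and 0.179. Median centring ended it for Col4a5 (0.0932) and Col18a1 (0.0678). That of Col18a1 was also lost with cyclic loess (0.105) and quantile normalization (0.1). Without the 6 arrays labelled MRL day 0 and day 3 it was at 0.0565. Type IV collagen forms the sheet of every basement membrane, and its 6 genes lie as 3 neighbouring pairs, each with 0 protein-coding genes between its members: Col4a1 with Col4a2, which serve basement membranes of all tissues, and the more restricted Col4a3 with Col4a4 on chromosome 1 and Col4a5 with Col4a6 on chromosome X. At day 3 the 4 genes of the restricted pairs were called lower and the widespread pair was not called.

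Col4a6, a chain of the type IV network of skin and smooth muscle, had levels of 6.72, 6.79 and 6.81 at day 0 and of 6.04, 5.89 and 5.91 at day 3. Levels at day 7 were 6.21, 5.88 and 6.20, and at day 14 they were 6.26, 6.31 and 6.24. Every amputated B6 array lay below every day 0 array. The difference was -0.82 ± 0.09 at day 3 (1.77-fold lower, adjusted p = 3.72e-07), -0.67 ± 0.09 at day 7 and -0.50 ± 0.09 at day 14 (adjusted p = 0.000202).

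Its neighbour and partner Col4a5 had levels of 6.32, 6.41 and 6.47 at day 0, 5.83, 5.65 and 5.71 at day 3, and 6.27, 5.93 and 6.13 at day 7. Day 3 lay below both other days. Col4a5 was -0.67 ± 0.11 at day 3 (1.59-fold lower, adjusted p = 6.32e-05) and -0.29 ± 0.11 at day 7 (adjusted p = 0.0428), and it was not called at day 14. The day 7 call was lost without day 0 replicate 2 or 3 or without day 7 replicate 2 or 3, with adjusted p between 0.0689 and 0.216, and at 0.0535 with a replicate block. Cyclic loess gave -0.19 (0.112) and array weights -0.18 (0.102).

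The upstream bases of this pair are shown because the genes lie side by side, point away from each other and were both lower at days 3 and 7. They lie at chrX:141475169-141475369 (plus strand, Col4a5) and chrX:141474096-141474326 (minus strand, Col4a6) of GRCm38.p6, from RefSeq, with CCAAT in capitals.
Col4a5: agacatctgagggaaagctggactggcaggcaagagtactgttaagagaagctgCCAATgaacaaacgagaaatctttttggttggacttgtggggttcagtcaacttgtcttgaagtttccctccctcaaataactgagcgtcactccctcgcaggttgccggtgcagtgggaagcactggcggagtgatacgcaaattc
Col4a6: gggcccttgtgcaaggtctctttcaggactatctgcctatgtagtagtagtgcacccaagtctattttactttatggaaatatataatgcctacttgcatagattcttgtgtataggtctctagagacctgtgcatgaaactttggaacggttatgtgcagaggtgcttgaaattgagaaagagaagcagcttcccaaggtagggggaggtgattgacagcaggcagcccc
The stretch of Col4a5 holds 1 CCAAT box and no GC box, and that of Col4a6 holds none of the 3 motifs searched. Both genes are among the 16 members counted with a GC box. That match is not within the stretches shown, which were cut at the gene's first base to 201 and 231 of the 250 bases searched.

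Col4a3 and Col4a4, whose products are best known from the kidney filter, changed by smaller amounts. Col4a3 was -0.26 ± 0.08 at day 3 (adjusted p = 0.0141) and -0.27 ± 0.08 at day 14, with levels between 6.13 and 6.38 on the amputated days and of 6.40, 6.59 and 6.51 at day 0. Days 3 and 14 stayed under the lowest day 0 array. The day 3 call was lost without day 0 replicate 2 (adjusted p = 0.0718) or day 3 replicate 2 (adjusted p = 0.0633), and the day 14 call without day 0 replicate 2, day 14 replicate 2 or day 14 replicate 3 (adjusted p of 0.0724, 0.0764 and 0.0506). Col4a4 was -0.35 ± 0.08 at day 3 (adjusted p = 0.00103), from 6.60, 6.56 and 6.67 to 6.37, 6.18 and 6.23 with no overlap, and was not called later. At day 3 Col4a3 was at -0.07 with cyclic loess (adjusted p = 0.449), -0.10 with median centring (0.408) and -0.14 with quantile normalization (0.155), and at day 14 it was at -0.18 with cyclic loess (0.0596). At day 7 Col4a3 was -0.24 ± 0.08 (adjusted p = 0.0234). That call was lost without day 0 replicate 2 (0.108) or 3 (0.058) or day 7 replicate 1 (0.109). Cyclic loess gave -0.13 (0.171), and a fit of the compared arrays alone gave an adjusted p of 0.0808.

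Col4a1 and Col4a2 were not called at day 3. Col4a1 had levels of 8.74, 8.77 and 8.71 at day 0 and of 9.30, 9.08 and 9.39 at day 7, with no overlap, a difference of 0.52 ± 0.12 (adjusted p = 0.00185). Col4a2 was 0.34 ± 0.13 above day 0 at day 7 (adjusted p = 0.0454), from 8.59, 8.60 and 8.69 to 9.03, 8.71 and 9.16. The highest day 0 array and the lowest day 7 array of Col4a2 lay close together, and the call was lost when any day 0 array, or day 7 replicate 1 or 3, was left out, with adjusted p between 0.0632 and 0.193, and at 0.0578 with a replicate block. It was also lost with quantile normalization (0.22, adjusted p = 0.0667) and without the 6 arrays labelled MRL day 0 and day 3 (0.0555).

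Col15a1 and Col18a1 encode related collagens of the basement membrane zone, the second being the source of endostatin, and only the first was called at day 3. Col15a1 went from 8.76, 8.77 and 8.88 at day 0 to 8.35, 8.26 and 7.84 at day 3 and 9.06, 8.87 and 9.20 at day 7. Day 3 lay below both other days, by -0.66 ± 0.12 from day 0 (adjusted p = 0.000174), and the step to day 7 was 0.89 ± 0.12 (adjusted p = 1.91e-05). Col18a1 was not called at day 3. At day 7 it was 0.57 ± 0.13 above day 0 (adjusted p = 0.00156), with levels of 9.01, 8.71 and 9.17 against 8.34, 8.41 and 8.42.

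Col18a1 was still 0.35 ± 0.13 above day 0 at day 14 (adjusted p = 0.0417), a call lost without any 1 day 0 array or without day 14 replicate 2 or 3, with adjusted p between 0.0764 and 0.185, at 0.0544 with a replicate block, and at 0.0647 without the 6 arrays labelled MRL day 0 and day 3. Quantile normalization gave 0.22 (0.0761) and cyclic loess 0.23 (0.0531). Col7a1 encodes type VII collagen, the anchoring fibril that ties the epidermal basement membrane to the dermis. Its levels were 8.10, 8.11 and 8.14 at day 0, 7.72, 7.46 and 7.52 at day 3 and 8.46, 8.14 and 8.39 at day 7. The fall was -0.55 ± 0.10 (1.46-fold lower, adjusted p = 0.000211) and the step from day 3 to day 7 was 0.76 ± 0.10 (1.70-fold, adjusted p = 1.86e-05), after which it was not called against day 0.

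Of the 15 other collagens, 2 were higher and 8 lower at day 3 (17.4% and 28% of all probe sets). The 13.3% higher there are near the share of all probe sets. At day 7, 7 were higher and 2 lower (23.5% and 19.4%), and at day 14, 7 were higher and 1 lower (22.8% and 14.2%). Col12a1, whose protein coats the surface of fibrils in tendon, ligament and skin, rose the most of the 32 at day 7. Its levels were 9.79, 9.82 and 9.84 at day 0, 10.20, 10.25 and 10.01 at day 3, 11.78, 11.58 and 11.69 at day 7 and 11.62, 11.96 and 11.61 at day 14. Each day up to day 7 lay above the one before, and days 7 and 14 overlapped. The difference from day 0 was 0.34 ± 0.11 at day 3 (adjusted p = 0.0127), 1.87 ± 0.11 at day 7 (3.65-fold, adjusted p = 3.76e-11) and 1.91 ± 0.11 at day 14 (3.77-fold). Without day 3 replicate 2 the day 3 value was 0.29 with an adjusted p of 0.058.

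Col14a1, a relative of Col12a1 that also binds fibril surfaces, showed no call at day 3 and rose by 1.36 ± 0.14 at day 7 (2.57-fold, adjusted p = 1.44e-07) and by 1.52 ± 0.14 at day 14. Its levels were 9.37, 9.39 and 9.62 at day 0, 9.59, 9.74 and 9.15 at day 3 and 10.92, 10.80 and 10.74 at day 7. Day 3 spread across the day 0 values, and day 7 lay above both. Col16a1, another fibril-associated collagen, fell from 8.65, 8.60 and 8.69 to 8.10, 7.80 and 7.73 at day 3, a difference of -0.78 ± 0.12 (adjusted p = 2.42e-05), and at day 7 stood 0.41 ± 0.12 above day 0. That day 7 call was lost without day 7 replicate 1 (adjusted p = 0.0556).

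Type VI collagen forms beaded filaments around cells, and its 3 main chains are built into 1 molecule. Col6a3 was 0.43 ± 0.14 above day 0 at day 3 (adjusted p = 0.0152), while Col6a1 stood at -0.37 ± 0.15 from it (adjusted p = 0.0494) and Col6a2 was not called. Col6a3 went from 9.88, 9.68 and 9.90 to 10.44, 10.35 and 9.97, and Col6a1 from 10.39, 10.07 and 10.33 to 10.16, 10.00 and 9.51. Arrays of the days did not overlap for Col6a3 and did for Col6a1. The Col6a3 call was lost without day 0 replicate 2 or day 3 replicate 1 or 2 (adjusted p of 0.0687, 0.0712 and 0.0581), and the Col6a1 call without day 0 replicate 1 or 3 or day 3 replicate 2 or 3 (adjusted p between 0.0545 and 0.336) and with a replicate block (0.0555). With median centring Col6a1 was at -0.22 (0.17).

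At day 7 the 3 chains had all risen. Levels of Col6a3 were 11.66, 11.28 and 11.47, those of Col6a1 11.47, 11.21 and 11.36, and those of Col6a2 11.28, 10.96 and 11.24. Every value lay above the day 0 and day 3 arrays of its own gene. The differences from day 0 were 1.65 ± 0.14, 1.08 ± 0.15 and 1.13 ± 0.14 for Col6a3, Col6a1 and Col6a2. Col6a6, a chain restricted to few tissues, was the 1 member with a mean level under 6 and was -0.37 ± 0.10 at day 7 (adjusted p = 0.00536).

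Type VIII collagen, a network-forming collagen of vessels and cornea, is built from Col8a1 and Col8a2. Col8a1 fell the most of the 32 at day 3. Its levels were 7.72, 8.21 and 8.18 at day 0, 7.18, 6.94 and 6.96 at day 3, 8.60, 8.52 and 8.52 at day 7 and 8.53, 8.78 and 8.72 at day 14. Day 3 lay below all other B6 arrays and days 7 and 14 above all others. The difference from day 0 was -1.01 ± 0.18 at day 3 (2.01-fold lower, adjusted p = 0.000115), 0.51 ± 0.18 at day 7 (adjusted p = 0.0253) and 0.64 ± 0.18 at day 14, and the step from day 3 to day 7 was 1.52 ± 0.18 (2.87-fold, adjusted p = 3.65e-06).

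The array of day 0 replicate 1 was low for Col8a1. Without it the day 7 value was 0.35 (adjusted p = 0.147) and the day 14 value 0.48 (adjusted p = 0.0564), and the day 7 call was also lost without day 7 replicate 1 (0.0682) or 2 (0.0521). Col8a2 was lower at day 3, -0.62 ± 0.15 (adjusted p = 0.00256), rose by 0.95 ± 0.15 from day 3 to day 7, with no overlap of arrays in either step, and was not called against day 0 later.

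Col17a1 was lower on all 3 days, as were Col4a6 and Col4a3. It encodes type XVII collagen, a membrane protein of the hemidesmosomes that hold basal keratinocytes to the basement membrane. Levels were 10.56, 10.49 and 10.36 at day 0, 9.88, 9.57 and 9.75 at day 3, 9.90, 9.54 and 9.77 at day 7 and 9.51, 10.04 and 9.70 at day 14. Every later array lay below every day 0 array. The differences were -0.74 ± 0.12, -0.73 ± 0.12 and -0.72 ± 0.12 on the 3 days (1.67-, 1.66- and 1.65-fold lower, adjusted p of 3.43e-05, 3.8e-05 and 6.43e-05).

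Keratinocyte markers were not called beside it. Of 5 keratinocyte markers, 0 were called on any of the 3 days, and their summed level ran from 15.32 to 15.36 at day 0 and from 15.27 to 15.39 at day 3. The lowest of their day 0 levels was 12.11, where the table's highest value is 13.64. Changes near the top of that range may be understated, which was not tested. Hair and nail keratins were called, with 4 of 4 lower at day 3 and at day 7 and 1 lower at day 14. Over all probe sets, 28%, 19.4% and 14.2% were lower on the 3 days. The summed level of these keratins was 12.03 to 12.35 at day 0 and 8.46 to 8.92 at day 3. Their part in the fall of Col17a1 was not tested.

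The upstream bases of Col8a1 and Col17a1 are shown because these genes had the largest fall at day 3 (Col8a1) and a fall called on all 3 days (Col17a1). They lie at chr16:57754738-57754987 and chr19:47692043-47692292, both on the minus strand of GRCm38.p6, from RefSeq. Capitals mark GC boxes (CCGCCC), the CCAAT box in reverse (ATTGG) and TATA boxes (TATAAA).
Col8a1: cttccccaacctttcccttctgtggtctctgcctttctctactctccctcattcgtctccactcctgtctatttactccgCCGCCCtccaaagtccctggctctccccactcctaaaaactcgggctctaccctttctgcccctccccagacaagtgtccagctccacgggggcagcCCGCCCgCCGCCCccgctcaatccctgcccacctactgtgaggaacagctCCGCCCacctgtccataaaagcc
Col17a1: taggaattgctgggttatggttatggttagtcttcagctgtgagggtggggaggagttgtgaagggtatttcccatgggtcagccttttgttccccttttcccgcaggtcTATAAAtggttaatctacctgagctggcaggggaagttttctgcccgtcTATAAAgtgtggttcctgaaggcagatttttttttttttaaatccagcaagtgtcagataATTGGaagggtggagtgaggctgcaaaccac
The stretch of Col8a1 holds 4 GC boxes and no TATAAA, and that of Col17a1 holds 2 TATA boxes and no GC box. Besides Col17a1, Col3a1 and Col13a1 were the members with TATAAA or its reverse in the 250 bases searched.

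The remaining transmembrane collagens Col13a1, Col23a1 and Col25a1, the fibril-associated Col20a1 and Col26a1 changed little. Their differences from day 0 in B6 lay between -0.35 and 0.03 on the 3 days. Col13a1 (-0.30 ± 0.12), Col20a1 (-0.34 ± 0.13) and Col23a1 (-0.35 ± 0.10) were called lower at day 3, and each call was lost without day 3 replicate 2, with adjusted p of 0.23, 0.289 and 0.0695. Scaling moved them too: cyclic loess gave -0.07 for Col13a1 (adjusted p = 0.587) and -0.17 for Col23a1 (0.1), and median centring gave -0.18 for Col20a1 (0.281). The calls of Col13a1 and Col20a1 were also lost without the 6 arrays labelled MRL day 0 and day 3 (0.0568 and 0.0512), and that of Col20a1 with a replicate block (0.0506). Col25a1 and Col26a1 were called on no day.

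Chains that share a molecule were compared within each array, by subtracting the log2 level of one chain from that of the other. The size of such a difference depends on the probe sets, so only its change between groups is read. Col6a3 minus Col6a1 was -0.51, -0.39 and -0.43 at B6 day 0 and 0.28, 0.35 and 0.47 at day 3. It was 0.19, 0.08 and 0.11 at day 7 and -0.03, 0.09 and 0.04 at day 14. Day 3 lay above all other B6 days, and days 7 and 14 overlapped each other. The difference moved by 0.81 from day 0 to day 3 and by -0.24 from day 3 to day 7.

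Over 16 such tests in B6, from day 0 to day 3 and from day 3 to day 7, the exact two-sided permutation p of 3 against 3 arrays cannot go below 0.1. This value, 0.145 after Benjamini-Hochberg adjustment over the 16, was reached in 11 of them, so none passed 0.05. Col5a2 minus Col5a1 moved by 0.46 at day 3 and Col8a2 minus Col8a1 by 0.39, both without overlap (exact p = 0.1). Col1a2 minus Col1a1 moved by 0.03 at day 3 (exact p = 0.7), its range at day 3 covering that of day 0. In the arrays labelled MRL day 3 that difference was 0.22, 0.17 and 0.12, above each of the other 21 arrays, which lay between -0.13 and 0.01.

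**Figure D3:**
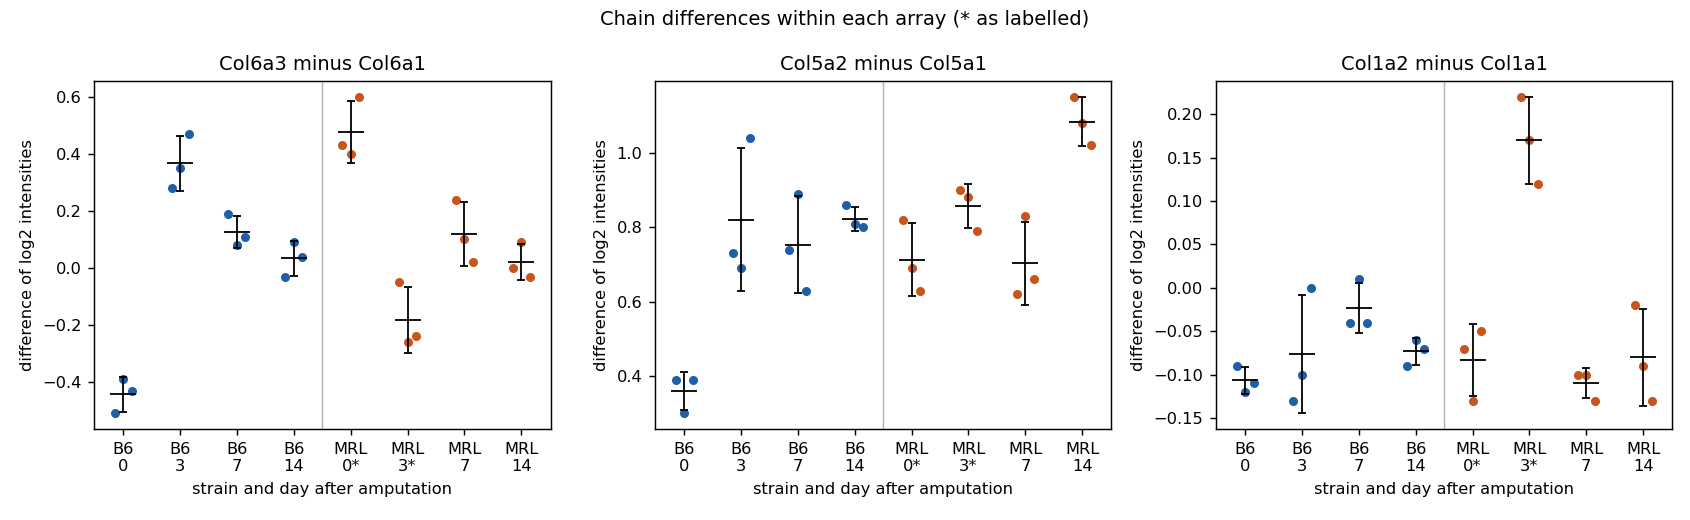
Difference of log2 intensities between chains of one collagen (y axis) in each of the 24 arrays, by strain and day (x axis, an asterisk marks groups whose arrays run against their day labels). Points are arrays and bars are means ± SD. Col6a3 minus Col6a1 is lowest in B6 day 0, at -0.51 to -0.39, and highest in B6 day 3 and labelled MRL day 0.

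Between the strains at day 7, 1 of the 32 collagens was higher in MRL and 0 were lower, where 9.46% of probe sets were called, 3.18% higher and 6.27% lower. At day 14, 0 were higher and 2 lower, where 5.27% were called, 0.866% higher and 4.4% lower. The genes of type I and III collagen were not called, and their intervals bound the difference in array signal. Col1a1 means on these days ran from 13.21 to 13.43, near the table's highest value of 13.64. Whether signals this high were compressed was not tested. For Col1a1, MRL minus B6 was 0.22 (95% interval -0.08 to 0.52) at day 7 and -0.05 (-0.35 to 0.25) at day 14. For Col3a1 it was -0.05 (-0.27 to 0.17) and 0.01 (-0.21 to 0.23).

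Col12a1 differed in both directions. At day 7 its levels in MRL were 12.14, 12.13 and 12.24, above the 11.78, 11.58 and 11.69 of B6, and at day 14 they were 11.29, 11.21 and 11.33, below the 11.62, 11.96 and 11.61 of B6. The strains did not overlap on either day. MRL minus B6 was 0.48 ± 0.11 at day 7 (1.40-fold, adjusted p = 0.00522) and -0.45 ± 0.11 at day 14 (1.37-fold lower, adjusted p = 0.0118). From day 7 to day 14 Col12a1 changed by -0.89 ± 0.11 in MRL (adjusted p = 1.15e-05) and by 0.04 ± 0.11 in B6.

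The difference between the strains in that change was -0.94 ± 0.15 (adjusted p = 0.0044), and Col12a1 was the 1 collagen of 32 called in it, where 0.264% of probe sets were called, 0.0942% higher and 0.17% lower. In a fit of the 12 arrays compared alone, the adjusted p was 0.0519 at the same -0.94. The day 14 difference was lost in a fit of its own 6 arrays (adjusted p = 0.117), without B6 day 14 replicate 2 (-0.34, adjusted p = 0.0998) and without MRL day 14 replicate 2 (-0.42, adjusted p = 0.0644). Col24a1 had a difference of similar size, -1.01 ± 0.33, that did not pass (adjusted p = 0.395).

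Col8a1 was lower in MRL at day 14, with levels of 7.66, 7.53 and 8.03 against 8.53, 8.78 and 8.72 in B6. The strains did not overlap, and the difference was -0.94 ± 0.18 (1.91-fold lower, adjusted p = 0.00231). At day 7 it was -0.41 ± 0.18 and did not pass (adjusted p = 0.174). The number of collagens called at day 14 was 1 without B6 day 14 replicate 2 or MRL day 14 replicate 2, and 4 without MRL day 14 replicate 3. At day 7, 2 were called without B6 day 7 replicate 2.

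In MRL from day 7 to day 14, 5 collagens were lower and 0 higher, where 3.54% of probe sets were called, 1.79% lower and 1.75% higher. Besides Col12a1 they were Col5a1, Col7a1, Col6a3 and Col27a1. Col7a1 went from 8.63, 8.47 and 8.33 to 7.89, 7.87 and 7.96, a difference of -0.57 ± 0.10 (1.48-fold lower, adjusted p = 0.00177). Col5a1 went from 10.56, 10.39 and 10.53 to 9.83, 9.78 and 10.08, a difference of -0.60 ± 0.16 (adjusted p = 0.042). Neither gene's arrays overlapped between the days.

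Col6a3 was -0.53 ± 0.14 (adjusted p = 0.0349) and Col27a1 was -0.43 ± 0.11 (adjusted p = 0.0246) in that step. Only 2 of the 32 were called in each fit without any 1 array of MRL day 7, or without MRL day 14 replicate 1 or 2, and Col5a1, Col6a3 and Col27a1 had lost their calls there, with adjusted p between 0.0555 and 0.159. Col5a1 also missed the threshold with a replicate block (0.0616) and without the arrays labelled MRL day 0 and day 3 (0.0527). With cyclic loess, median centring or quantile normalization, 9 collagens were lower in each case. Osteoclast and macrophage markers were lower in MRL at day 7 (4 of 4 and 4 of 5), and 3 of 5 chondrocyte markers were higher there and 3 of 5 fell to day 14. Hair and nail markers were higher in MRL at day 7 in 4 of 4. Of 3 tendon markers, 1 was higher in MRL at day 7 and 1 fell from day 7 to day 14. Over all probe sets, 3.18% were higher and 6.27% lower in MRL at day 7, and 1.79% fell from day 7 to day 14. The part of these markers in the collagen differences was not tested.

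**Figure D4:**
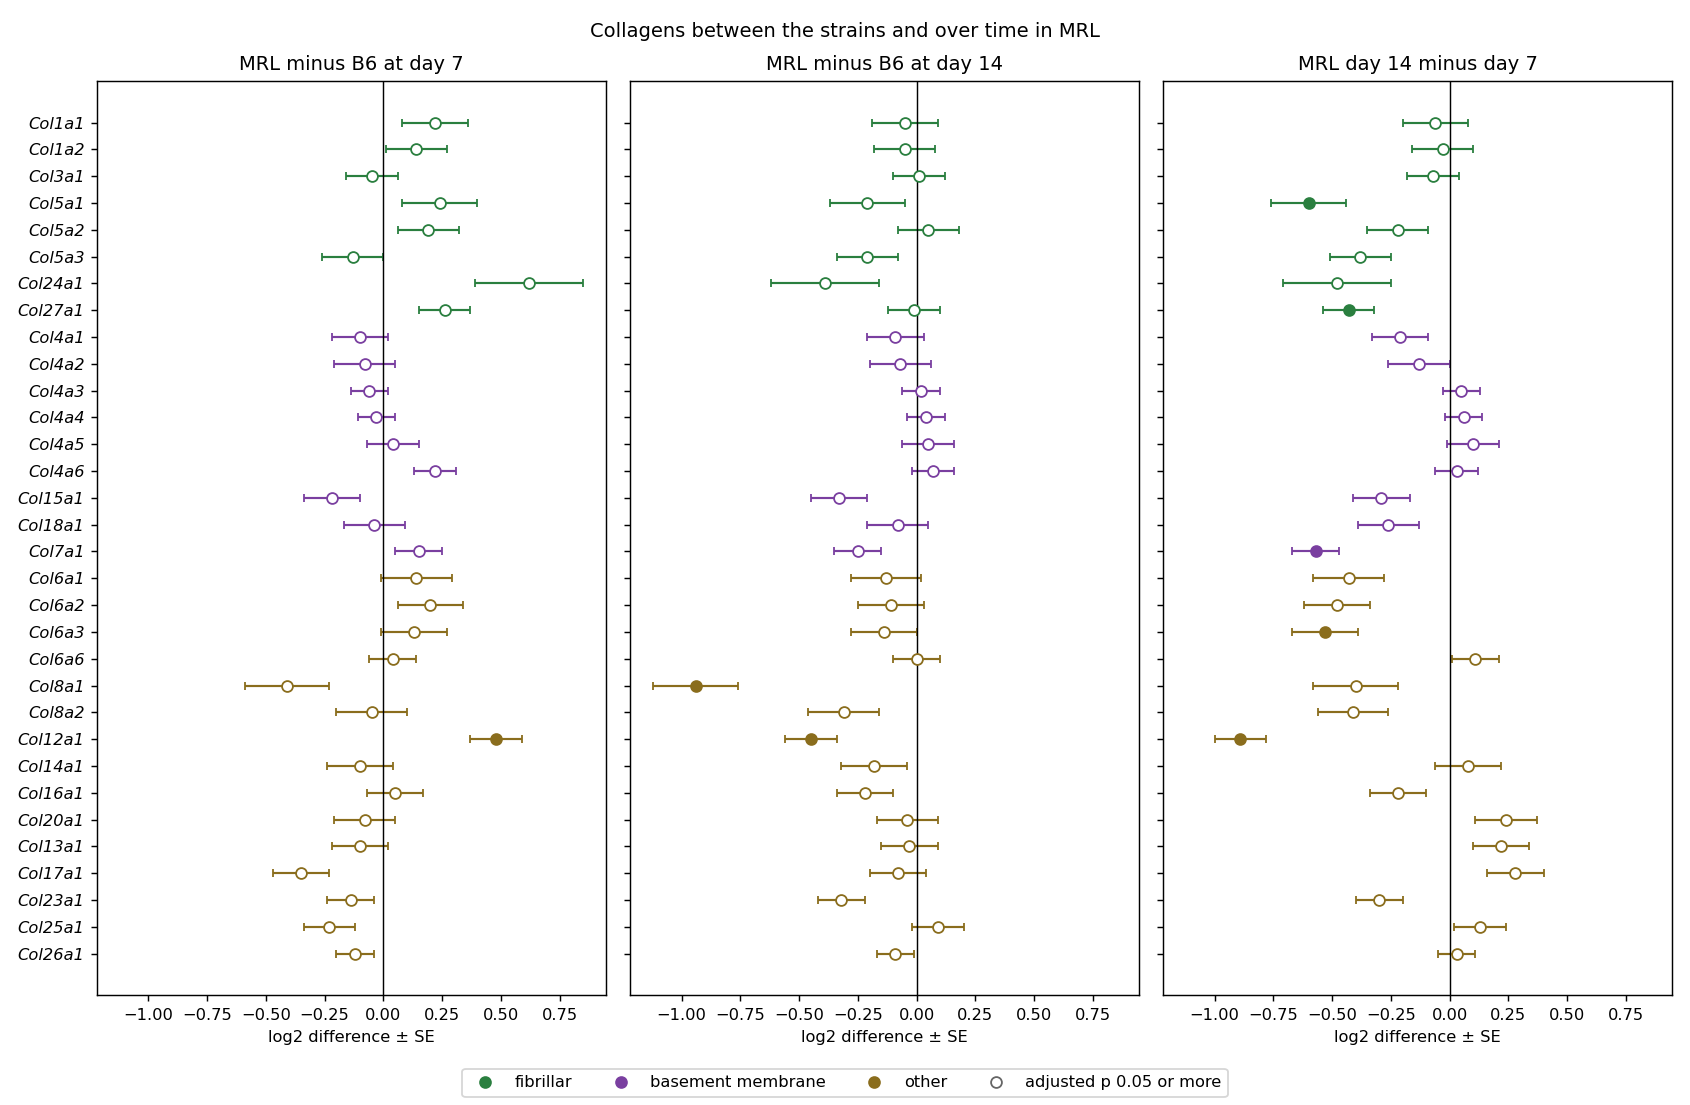
Log2 difference (x axis, ± SE) of each of the 32 collagen genes (y axis) for MRL minus B6 at day 7, MRL minus B6 at day 14 and MRL day 14 minus day 7, with 3 arrays a group. Filled points passed the adjusted p of 0.05. Col12a1 is filled in each panel, at 0.48, -0.45 and -0.89.

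The arrays labelled MRL day 0 and day 3 were also compared with B6, where many probe sets of all kinds were called. The arrays labelled MRL day 0 had 5 collagens higher and 12 lower than B6 day 0, where 40% of probe sets were called, 17.9% higher and 22.1% lower. The 15.6% of collagens higher are near the share of all probe sets. The 5 were Col3a1, Col5a2, Col24a1, Col6a3 and Col12a1, and the largest falls were in Col8a1 (-1.01 ± 0.18), Col8a2 (-0.73 ± 0.15) and Col4a6 (-0.71 ± 0.09). With median centring the numbers were 7 and 9. The call of Col24a1, whose groups overlapped, was lost without any 1 B6 day 0 array or labelled MRL day 0 replicate 2 or 3 (adjusted p between 0.0695 and 0.217), with the pseudocount (0.39, 0.0904) and with a replicate block (0.0606). That of Col3a1 was lost with cyclic loess (0.18, 0.142). Set against B6 day 3, the same arrays had 1 collagen higher and 0 lower (10.9% of probe sets were called, 6.87% higher and 4.06% lower), Col12a1 at 0.34 ± 0.11 (adjusted p = 0.0399). That call was lost without any array of B6 day 3 or without labelled MRL day 0 replicate 1 or 2, with adjusted p between 0.0543 and 0.223, and with cyclic loess (0.0892).

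For Col4a6 the labelled MRL day 0 arrays gave 6.11, 6.09 and 5.98 and the labelled MRL day 3 arrays 7.01, 6.76 and 6.73. The first lay below every B6 day 0 array, and the second overlapped the 6.72 to 6.81 of B6 day 0. Col6a3 gave 10.37, 10.82 and 10.41 in the arrays labelled MRL day 0 and 9.52, 9.36 and 9.26 in those labelled day 3, so the first were the higher. From labelled day 0 to labelled day 3, 2 collagens were higher (Col4a5 and Col4a6) and 10 lower, where 20.5% of probe sets were called, 13.4% higher and 7.15% lower, with Col6a3 at -1.16 ± 0.14 and Col12a1 at -0.98 ± 0.11.

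The arrays labelled MRL day 3 were lower than B6 day 3 in 10 collagens and higher in 4, Col4a4, Col4a5, Col4a6 and Col17a1 (40.6% of probe sets were called, 13.6% lower and 27.1% higher), or 14 and 3 with median centring. Compared with B6 day 0, the arrays labelled MRL day 3 were lower in 21 of the 32 and higher in 0, where 30.3% of probe sets were called, 12.3% lower and 18% higher. Fibrillar genes were lower in 6 of 8, Col1a1 by -0.85 ± 0.14 (1.80-fold lower, adjusted p = 0.000172) with levels of 11.73, 11.81 and 11.78. These lay below all other arrays of the study except B6 day 3 replicate 3, at 11.80. The number lower was 11 without B6 day 0 replicate 3 or without MRL day 3 replicate 1.

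Whichever of the doubted groups served as the start, most MRL collagens were higher at day 7. Against labelled MRL day 0, 19 were higher and 1 lower at day 7 (17.3% of probe sets called, 10.7% higher and 6.55% lower) and 16 higher and 0 lower at day 14 (17.7% called, 10.5% and 7.23%), or 16 and 2 with median centring. Against labelled MRL day 3, 21 were higher and 2 lower at day 7 (23.1% called, 9.68% and 13.4%) and 17 higher and 2 lower at day 14 (13.1% called, 5.59% and 7.55%). Col12a1 was 1.67 ± 0.11 and 2.65 ± 0.11 above the 2 groups at day 7, and Col24a1 1.78 ± 0.23 and 2.43 ± 0.23. For Col12a1 the levels were 10.40, 10.71 and 10.39 in labelled MRL day 0, 9.57, 9.62 and 9.38 in labelled MRL day 3 and 12.14, 12.13 and 12.24 at day 7, with no overlap. Col24a1 levels were 5.60, 6.29 and 6.48, then 5.55, 5.18 and 5.68, and 7.70, 7.89 and 8.13 at day 7. The labelled groups overlapped for Col24a1, and day 7 lay above both. Col17a1 was lower than both at day 7, by -0.49 ± 0.12 and -0.81 ± 0.12.

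**Figure D5:**
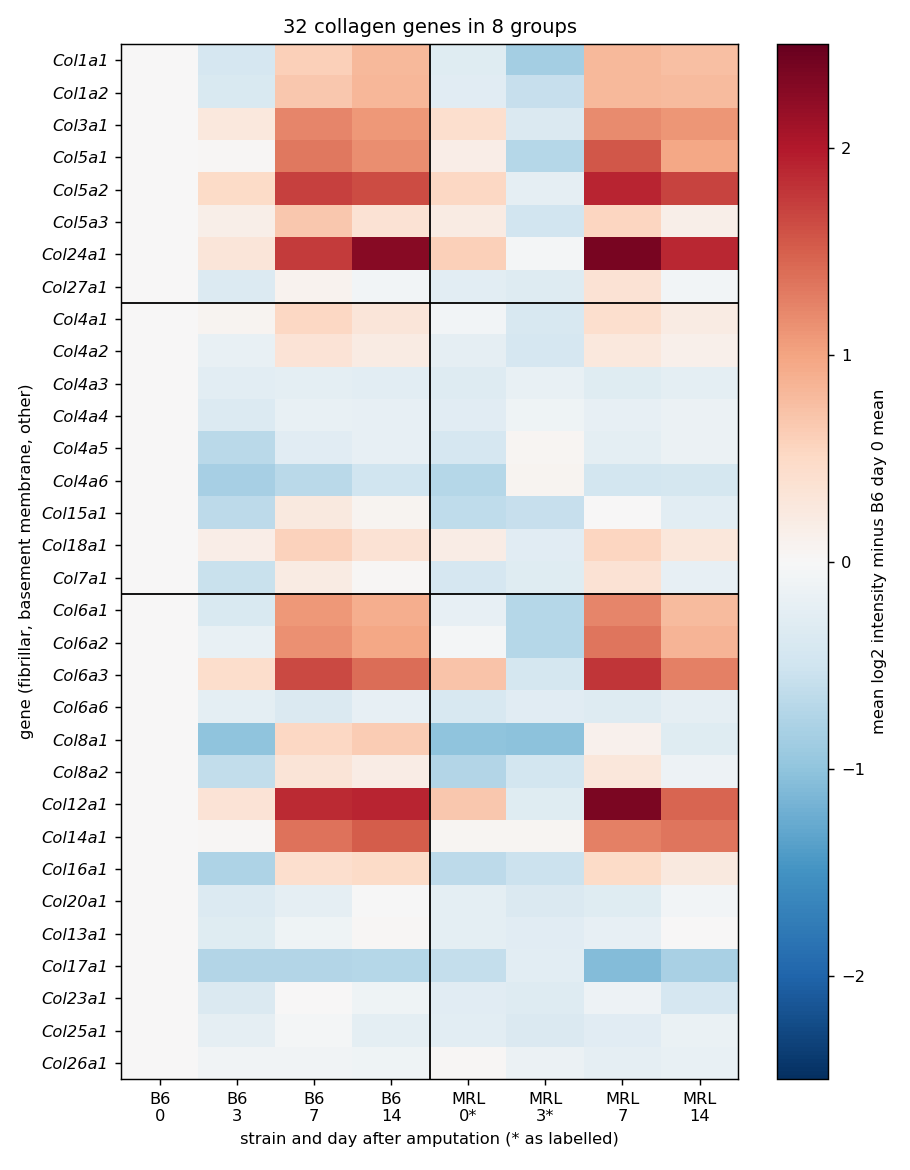
Mean log2 intensity of each of the 32 collagen genes (y axis) minus its B6 day 0 mean, in the 8 groups of strain and day (x axis, an asterisk marks groups whose arrays run against their day labels), with red higher and blue lower. Col12a1 is red on days 7 and 14 in both strains, and Col4a6 is blue in B6 day 3 and in labelled MRL day 0, at -0.82 and -0.71.

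Collagen chains are modified, cleaved and cross-linked by a set of enzymes. Of 30 listed enzymes and helpers of collagen maturation 21 were measured, and 9 were higher and 2 lower at day 3 in B6 (17.4% and 28% of all probe sets), with a median of 0.22 beside -0.08 for all probe sets. At day 7, 17 were higher and 2 lower (23.5% and 19.4% of all probe sets), and at day 14, 15 and 2 (22.8% and 14.2%). P4ha1, a catalytic subunit of prolyl 4-hydroxylase, which stabilises the helix, was 1.24 ± 0.12 above day 0 at day 3 (adjusted p = 3.94e-08) and 1.30 ± 0.12 at day 7. Plod2, a lysyl hydroxylase of the ends of fibrillar chains, was 0.89 ± 0.23 above day 0 at day 3 and 2.24 ± 0.23 at day 7 (adjusted p = 1.67e-07). Loxl2, a cross-linking oxidase, was called at day 7, at 1.45 ± 0.16 (adjusted p = 3.96e-07).

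The 2 members that were lower on each of the 3 days were Pcolce2, a helper of procollagen cleavage, at -1.57 ± 0.14 on day 3 (adjusted p = 2.01e-08), and P3h2, a prolyl 3-hydroxylase that acts on type IV collagen, at -0.92 ± 0.12 (adjusted p = 3.27e-06). In MRL from day 7 to day 14, 5 of the 21 were lower and 1 higher (1.79% and 1.75% of all probe sets). The lower ones were P4ha3 (-0.79 ± 0.21), Loxl3 (-0.59 ± 0.14), Plod3 (-0.56 ± 0.14), Plod1 (-0.52 ± 0.14) and Colgalt1 (-0.47 ± 0.10), with adjusted p between 0.0109 and 0.0425.

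Cells bind collagen through integrins and receptor kinases. Of 7 measured collagen receptors and uptake genes, 2 were higher and 2 lower at day 3 and 5 higher and 1 lower at day 7 in B6. Over all probe sets 17.4% were higher and 28% lower at day 3, so the 2 of 7 lower are near that share, and 23.5% were higher at day 7. Itga11, the integrin chain of fibroblasts that binds type I collagen, was -0.51 ± 0.14 at day 3 (adjusted p = 0.00591) and 0.89 ± 0.14 at day 7 (adjusted p = 3.22e-05). Ddr1, an epithelial collagen receptor kinase, was -1.04 ± 0.13 at day 3 and -1.03 ± 0.13 at day 7 (adjusted p = 3.05e-06). Itgb1, the shared beta chain of the collagen-binding integrins, was 1.07 ± 0.08 and 1.51 ± 0.08 above day 0.

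Of 11 measured partners of type IV collagen in the basement membrane, 1 was higher and 4 lower at day 3 (17.4% and 28% of all probe sets), 5 higher and 2 lower at day 7 (23.5% and 19.4%), and 8 higher and 0 lower at day 7 against day 3 (17% and 4.17%). Lama2, a laminin chain of muscle and nerve, was -1.33 ± 0.11 at day 3 (adjusted p = 8.85e-09). Lama4, a laminin chain of vessels, was 0.60 ± 0.10 at day 3 and 1.44 ± 0.10 at day 7 (adjusted p = 1.48e-09). Nid1, which links laminin to type IV collagen, was 0.92 ± 0.11 at day 7 (adjusted p = 1.03e-06). Agrn, a heparan sulfate proteoglycan, was -0.98 ± 0.09 at day 3 and -0.72 ± 0.09 at day 7.

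TGF-beta signalling is a known inducer of fibrillar collagen genes, and of 14 measured genes of that pathway 4 were higher and 4 lower at day 3, and 8 higher and 0 lower at days 7 and 14 in B6. The 4 of 14 lower at day 3 are near the 28% of all probe sets lower there, and 17.4% were higher at day 3, 23.5% at day 7 and 22.8% at day 14. The ligands differed: Tgfb1 was 0.65 ± 0.15 at day 3 (adjusted p = 0.00121), Tgfb2 was -0.75 ± 0.11 at day 3 (adjusted p = 1.79e-05), and Tgfb3 was 1.21 ± 0.17 at day 7 (adjusted p = 7.01e-06). The receptor Tgfbr1 was 0.70 ± 0.10 at day 3 and 1.56 ± 0.10 at day 7 (adjusted p = 3.99e-10). Ccn2, a matrix protein and known target of the pathway, was -0.68 ± 0.19 at day 3 (adjusted p = 0.007) and rose by 0.85 ± 0.19 from day 3 to day 7.

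Markers of collagen-making cells changed over the same days in B6. Of 5 fibroblast markers 2 were higher and 2 lower at day 3 and 4 higher at day 7, and their summed level ran from 13.85 to 13.89 at day 0, 13.88 to 13.98 at day 3 and 14.51 to 14.61 at day 7. Of 3 osteoblast markers 2 were higher at day 7 and 3 at day 14, with summed levels of 9.20 to 9.57 at day 0 and 12.05 to 12.86 at day 14. Of 3 tendon markers 2 were lower at day 3, and all 3 were higher at day 7 than at day 3. Smooth muscle and myofibroblast markers were lower at day 3 in 3 of 4, and endothelial markers higher in 5 of 6. Over all probe sets, 17.4% were higher and 28% lower at day 3, 23.5% higher at day 7 and 22.8% higher at day 14. From day 3 to day 7, 17% were higher.

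Other cells of the digit moved as well. All 5 adipocyte, both measured Schwann cell and 2 of 4 pericyte markers were lower at day 3, where 28% of all probe sets were lower. On that day 5 of 5 macrophage and 4 of 4 neutrophil markers were higher, where 17.4% of all probe sets were higher. The summed neutrophil level went from 8.64 to 8.90 at day 0 up to 13.32 to 13.56. The table's lowest value is 2.00 in log2, so no marker could stand at 0, and whether each marker lay above background was not measured. The part of any of these cells in the collagen differences was not tested.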

How the data were processed

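Total RNA of mouse digits was measured on 24 exon arrays. The deposited values are intensity per probe set on a linear scale, summarised by the authors with RMA in Affymetrix Expression Console on the mm8 build, per the submitters' processing notes. No label or header tells how the RMA values came to be linear. Array medians ran from 141 to 181 (0.356 in log2), so the arrays do not share 1 distribution. For this work the intensities were turned to log2, with no pseudocount, no filter and no further scaling. Of 16661 probe sets, 14939 had 1 symbol, 989 several and 733 none in the platform annotation, and the 15928 with a symbol were tested. One fit of limma 3.58.1 in R 4.3.3 held 8 group means (16 residual and 4.62 prior degrees of freedom), and 18 contrasts were taken. P-values are two-sided and adjusted by Benjamini-Hochberg over the 15928 at a threshold of 0.05. The fit was tested on simulated data.

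The members, gene lists, markers and comparisons were chosen with earlier results of these data known, and counts for them are descriptions. Values per array are printed for up to 3 called members of each class with the largest differences in each comparison, and for chains of one molecule whose calls differ; in the comparisons with the doubted arrays, fewer members are shown. No column of the table went unused (0 left out), no arrays were identical (0 pairs, highest correlation 0.996), and the p-values measure the spread between the arrays of a group. Residuals of arrays with the same replicate number correlated above 0.1 in 10 of 84 cases, and every number did so in 1 of 28 group pairs, so arrays were treated as unpaired. Alternatives were cyclic loess, median centring, quantile normalization, a filter at a mean log2 of 6, a pseudocount of 32, array weights, a mean-variance trend, a replicate block, the lowest probe set per gene, a fit of the compared arrays alone, leaving out each array, and, chosen after seeing the data, a fit without the 6 doubted arrays. Chain differences within an array and their exact tests were also chosen after seeing the data.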

Additional observations from a re-analysis of the deposited data

Results flagged for a closer look

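Col12a1 changed differently in the strains from day 7 to day 14, by -0.89 in MRL and 0.04 in B6. The test of the difference itself, the interaction contrast of limma, gave -0.94 ± 0.15 with an adjusted p of 0.0044. All 3 MRL arrays of day 14 lay below all 3 of day 7, while the B6 days overlapped. Over the arrays left out in turn the value ran from -1.0 to -0.82.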

How the results depend on the processing

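No called member value changed direction under any setting run. Over 236 called values and their alternatives, 3872 values in all, 3590 stayed called and 282 missed the threshold. The 3590 hold the setting of the lowest probe set per gene. It repeats the main fit, as each member has 1 probe set, so no call could be lost there. The number of collagens called moved by over 1.5 times in these cases. A fit of the compared arrays alone called 12 for B6 day 3 minus day 0, 3 for MRL minus B6 at day 7, 1 at day 14, 3 for MRL day 14 minus day 7, 0 for the strain difference in that change and 0 for labelled MRL day 0 minus B6 day 3, a fit with fewer residual arrays. Array weights called 1 for B6 day 14 minus day 7, 6 for MRL minus B6 at day 7, 8 at day 14, 16 for MRL day 14 minus day 7 and 2 for labelled MRL day 0 minus B6 day 3. Cyclic loess, median centring and quantile normalization each called 3 for MRL minus B6 at day 7 and 9 for MRL day 14 minus day 7, and cyclic loess called 0 for labelled MRL day 0 minus B6 day 3. The cause was not tested.

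Leaving out 1 array at a time gave 12 to 20 calls for B6 day 3 minus day 0, 18 to 22 for day 7, 15 to 18 for day 14, 18 to 24 for day 7 minus day 3 and 0 to 0 for day 14 minus day 7. It gave 1 to 2 for MRL minus B6 at day 7, 1 to 4 at day 14, 2 to 4 for MRL day 14 minus day 7 and 1 to 1 for the strain difference. For the labelled groups it gave 15 to 20 and 12 to 16 (MRL minus B6 at day 0 and 3), 9 to 14 (day 3 minus day 0), 18 to 21 and 12 to 16 (days 7 and 14 minus day 0), 23 to 24 and 18 to 19 (days 7 and 14 minus day 3), 11 to 16 (day 3 minus B6 day 0) and 0 to 1 (day 0 minus B6 day 3). With the replicate number as a block, 19, 20 and 16 collagens were called for B6 days 3, 7 and 14 minus day 0, 23 for day 7 minus day 3, 0 for day 14 minus day 7, 4 for MRL day 14 minus day 7 and 1 for the strain difference, all within 1.5 times, and the numbers were not treated as pairing the arrays. Each member has 1 probe set, so the choice of probe set per gene changed nothing. Signal over background was not measured, so a floor under low probe sets is unknown.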
